A study of Homo sapiens with 6 samples.

Results

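Expression of HSP90AA1 and of HSP90 co-chaperone genes was examined in LP-1 cells in which a short hairpin RNA depleted RNF5 and in cells that carried a non-target control. LP-1 is an established human multiple myeloma cell line, here grown in RPMI-1640 with 15% serum, and RNF5 is a ubiquitin ligase anchored in the membrane of the endoplasmic reticulum. There were 3 libraries of RNF5 knockdown cells (RNF5 KD) and 3 of control cells (Ctrl), and the study's title links RNF5 to DNAJA1, a co-chaperone of HSP70, and to sensitivity to selinexor. The number of hairpins, the time after their delivery and whether a group's libraries were independent cultures are not stated, so p-values here cover the variation among 6 libraries and no more. The genes were chosen by name as HSP90AA1, HSP90AB1, FKBP4, STIP1, AHSA1, CHORDC1 and CACYBP. Of these 7 genes, 5 were among the 1877 genes of the table analysed, and HSP90AB1 and AHSA1 have no values here. The authors had put into that table genes that had changed by a log2 of 1 or more at an adjusted p of at most 0.0499 in their own test, so a fall of these 5 genes on the same libraries is no independent evidence.

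HSP90 is an ATP-driven dimeric chaperone of the cytosol that completes the folding of kinases, steroid receptors and other client proteins. Clients arrive from HSP70, and co-chaperones bind HSP90 at successive steps, hand over the client, set the speed of ATP hydrolysis and add other enzyme activities. HSP90AA1 encodes the stress-inducible form and HSP90AB1 the constitutive form. Many of these genes are transcribed under control of heat shock factor 1, which binds as a trimer to heat shock elements, runs of the 3-base unit GAA in alternating orientation, and myeloma cells, which make large amounts of antibody protein, are known to depend on chaperones.

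RefSeq promoter windows, each from 250 bases before to 50 bases after an annotated transcript start (build GRCh38.p14), were available for 4 of the 5 genes. They are shown because the genes fell together, and capitals mark pairs of inverted units, GAANNTTC or TTCNNGAA, which read the same on both strands and may overlap each other. Of the 2 annotated starts of each of HSP90AA1 and STIP1, the start whose window held a match is printed, together with the single start of CHORDC1.
HSP90AA1, chr14:102086995-102087294, minus strand: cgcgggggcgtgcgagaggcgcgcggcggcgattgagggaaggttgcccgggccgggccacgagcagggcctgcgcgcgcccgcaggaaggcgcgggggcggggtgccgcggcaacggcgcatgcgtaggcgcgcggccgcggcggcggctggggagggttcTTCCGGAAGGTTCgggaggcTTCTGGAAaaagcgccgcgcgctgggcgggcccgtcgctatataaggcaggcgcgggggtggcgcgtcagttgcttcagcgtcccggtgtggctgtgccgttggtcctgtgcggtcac
STIP1, chr11:64185921-64186220, plus strand: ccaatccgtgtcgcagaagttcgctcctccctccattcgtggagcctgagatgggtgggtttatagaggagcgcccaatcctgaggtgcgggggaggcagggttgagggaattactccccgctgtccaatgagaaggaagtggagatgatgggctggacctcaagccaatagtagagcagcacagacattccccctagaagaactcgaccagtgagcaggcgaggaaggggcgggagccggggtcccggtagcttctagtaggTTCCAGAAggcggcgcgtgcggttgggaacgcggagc
CHORDC1, chr11:90223000-90223299, minus strand: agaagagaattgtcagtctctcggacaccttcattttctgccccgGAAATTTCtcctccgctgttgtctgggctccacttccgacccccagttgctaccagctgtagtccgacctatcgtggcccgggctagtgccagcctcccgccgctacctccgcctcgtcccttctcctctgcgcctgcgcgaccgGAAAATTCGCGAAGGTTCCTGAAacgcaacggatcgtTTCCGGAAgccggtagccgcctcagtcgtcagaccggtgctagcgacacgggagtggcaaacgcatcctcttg
Positions are counted from the start, with negative numbers before it. In the HSP90AA1 window, 3 alternating units (TTCNNGAANNTTC) lay at positions -88 to -76, and another pair at positions -68 to -61. The CHORDC1 window held 6 pairs, of which 4 overlapped in 1 run of alternating units from position -60 to position -38. The STIP1 window held 1 pair, at positions 14 to 21. Neither of the 2 CACYBP windows held these letters. A pair was found in 13.5% of all 35116 promoter windows, and 3 alternating units (GAANNTTCNNGAA or TTCNNGAANNTTC) in 0.49% of them. Which start LP-1 cells use was not measured, and a match is a run of letters and not a measured binding site.

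**Figure D1:**
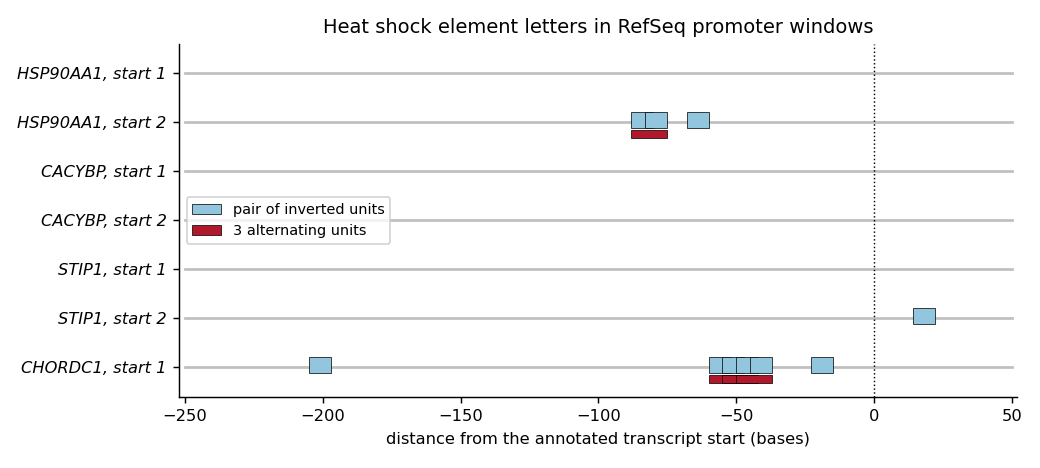
Positions of heat shock element letters in RefSeq promoter windows of HSP90AA1, CACYBP, STIP1 and CHORDC1, by distance from the annotated transcript start in bases. Light boxes are pairs of inverted units and dark boxes are 3 alternating units. The dark boxes lie within 100 bases before the second start of HSP90AA1 and the start of CHORDC1.

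All 5 listed genes were lower in RNF5 KD cells, by between 1.62-fold and 5.01-fold, and in each gene every knockdown value lay below every control value. The order by size of the fall was HSP90AA1, FKBP4, CACYBP, STIP1 and CHORDC1. All 5 passed limma on log2(value + 1), with p adjusted by Benjamini-Hochberg over the 1290 genes that reached 1 in no fewer than 3 libraries. In that fit 42% of genes were called lower and 97.7% were called changed in either direction, so passing the test does not set these genes apart in the authors' table. Knockdown values lay entirely below control values in 40.8% of the genes fitted. Values are normalized abundances whose scale is not stated, and since they are not known to be per length, levels are not compared between genes.

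The chaperone itself showed the largest fall. HSP90AA1 (ENSG00000080824) had 232, 268 and 253 in the RNF5 KD libraries, against 1545, 1241 and 991 in the Ctrl libraries. The 3 knockdown values were close together and far below the lowest control value, while the control values spread more widely. The mean was 251 ± 18.5 in RNF5 KD cells and 1259 ± 277 in Ctrl cells (SD, n = 3 each), so that 19.9% of the control level was left. The log2 fold change was -2.30 (SE 0.17, 95% interval -2.68 to -1.92, limma adjusted p = 1.67e-06). Reads of HSP90AA1 and of its pseudogene HSP90AA2P may be shared between them. HSP90AA2P had 0.25, 0.43 and 0.33 in RNF5 KD libraries and 2.32, 2.03 and 1.31 in Ctrl libraries. Its mean fell 5.60-fold, against 5.01-fold for HSP90AA1. Summing both genes, an alternative added after the data were seen, left the log2 fold change at -2.30. Because the HSP90AA2P values are so small beside those of HSP90AA1, the sum could hardly differ and does not test read sharing.

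FKBP4 followed. It encodes an immunophilin, a peptidyl-prolyl isomerase that docks on the C-terminus of HSP90 and takes part in the maturation of steroid receptors. FKBP4 (ENSG00000004478) had 27.6, 29.1 and 26.2 in RNF5 KD libraries, against 96.9, 90.4 and 71.2 in Ctrl libraries. The knockdown values were close together, and the lowest control value stood well above them. The mean was 27.6 ± 1.42 in RNF5 KD cells and 86.1 ± 13.4 in Ctrl cells (SD, n = 3 each), a 3.12-fold fall (log2 fold change -1.59, SE 0.17, limma adjusted p = 1.47e-05).

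CACYBP, which encodes a scaffold protein of SIAH1 ubiquitin ligase complexes with a domain of the type found in HSP90 co-chaperones, fell by a similar amount. CACYBP (ENSG00000116161) had 203, 202 and 203 in RNF5 KD libraries, against 567, 530 and 498 in Ctrl libraries. The knockdown values were nearly equal, with a coefficient of variation of 0.301%, and only 2 of the 1290 genes fitted, CACYBP included, were at or below that value. The mean was 203 ± 0.610 in RNF5 KD cells and 532 ± 34.3 in Ctrl cells (SD, n = 3 each), a 2.62-fold fall (log2 fold change -1.39, SE 0.14, limma adjusted p = 7.87e-06).

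STIP1 and CHORDC1 showed the smallest falls. STIP1, also called HOP, is the adaptor that holds HSP70 and HSP90 together while a client passes between them. STIP1 (ENSG00000168439) had 168, 186 and 172 in RNF5 KD libraries, against 400, 367 and 267 in Ctrl libraries. Control library 3 was the nearest to the knockdown values but above all of them. The mean was 175 ± 9.65 in RNF5 KD cells and 345 ± 69.4 in Ctrl cells (SD, n = 3 each), a 1.97-fold fall (log2 fold change -0.95, SE 0.17, limma adjusted p = 0.000338). CHORDC1, also called morgana, is an HSP90-binding protein with zinc-binding CHORD domains. CHORDC1 (ENSG00000110172) had 16.8, 21.4 and 21.9 in RNF5 KD libraries, against 40.4, 28.9 and 28.1 in Ctrl libraries. The groups were separate but closer together than for the other 4 genes, and control library 1 stood above the other two. The mean was 20.1 ± 2.84 in RNF5 KD cells and 32.4 ± 6.87 in Ctrl cells (SD, n = 3 each), a 1.62-fold fall (log2 fold change -0.66, SE 0.20, limma adjusted p = 0.00724).

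**Figure D2:**
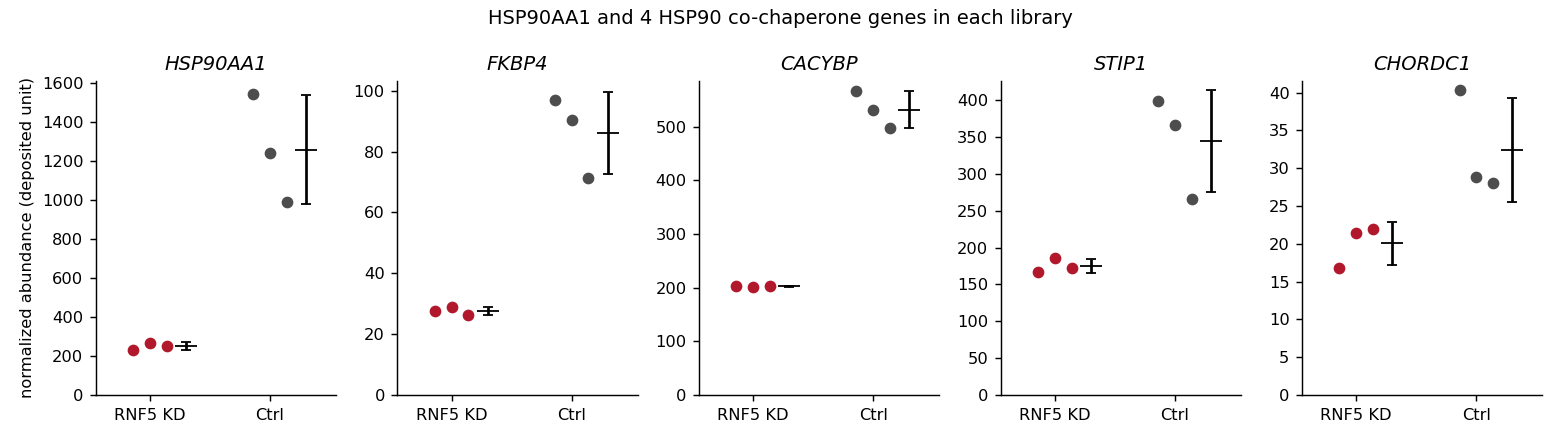
Normalized abundance, in the deposited unit, of the 5 genes in each library, with RNF5 KD libraries (red) left of Ctrl libraries (grey); black marks are the mean and SD of 3 libraries and each axis starts at 0. In every gene the 3 knockdown points lie below the 3 control points, with the widest gap in HSP90AA1 and the narrowest in CHORDC1.

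For each gene, the exact 2-sided permutation test gave p = 0.1, the smallest value that 3 against 3 libraries allow. In the authors' deposited table the log2 fold changes were -2.50 for HSP90AA1, -1.84 for FKBP4, -1.58 for CACYBP, -1.13 for STIP1 and -1.06 for CHORDC1. The log2 ratio of library means lay above the value in the authors' deposited table by 0.159 to 0.196 for the first 4 of these genes and by 0.367 for CHORDC1, against a median of 0.173 over 431 genes with both means at least 5. Control library 3 had the lowest and control library 1 the highest control value in all 5 genes. Control library 3 was also the lowest control in 60.1% of the 542 genes called lower and in 66.1% of the 1290 genes fitted. Control library 1 was the highest control in 58.4% of the genes fitted. Without control library 3 all 5 genes still fell. With median-of-ratios scaling over the listed genes, the median log2 fold change of all genes fitted moved to 0.30 from 0.73. The falls became larger, at -2.92 for HSP90AA1, -2.20 for FKBP4, -2.01 for CACYBP, -1.57 for STIP1 and -1.25 for CHORDC1. This scaling takes most genes as unchanged, which does not hold for genes selected for change. It divided knockdown values by 1.26 to 1.37 and control values by 0.738 to 0.969. The larger falls thus follow from the scaling and are no further evidence.

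Relative to each of the 4 co-chaperone genes, HSP90AA1 was lower in all 3 RNF5 KD libraries than in the Ctrl libraries. These ratios were taken within a library, where any factor common to a library cancels. The ratio of HSP90AA1 to FKBP4 was 8.39, 9.24 and 9.65 in RNF5 KD libraries, against 15.9, 13.7 and 13.9 in Ctrl libraries. The ratio to CACYBP was 1.14, 1.33 and 1.25 in RNF5 KD libraries, against 2.73, 2.34 and 1.99 in Ctrl libraries. For both ratios, the 3 knockdown libraries lay below the 3 control libraries. The ratio to STIP1 averaged 1.43 ± 0.0452 in RNF5 KD libraries and 3.65 ± 0.247 in Ctrl libraries (SD, n = 3 each). The ratio to CHORDC1 averaged 12.6 ± 1.13 in RNF5 KD libraries and 38.9 ± 3.86 in Ctrl libraries (SD, n = 3 each). On the log2 scale the ratios differed between RNF5 KD and Ctrl by -0.68 for FKBP4, -0.92 for CACYBP, -1.35 for STIP1 and -1.62 for CHORDC1. Each of the 4 comparisons had an exact 2-sided permutation p = 0.1, also after Benjamini-Hochberg adjustment over them, the smallest that the design allows, so none can pass 0.05.

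**Figure D3:**
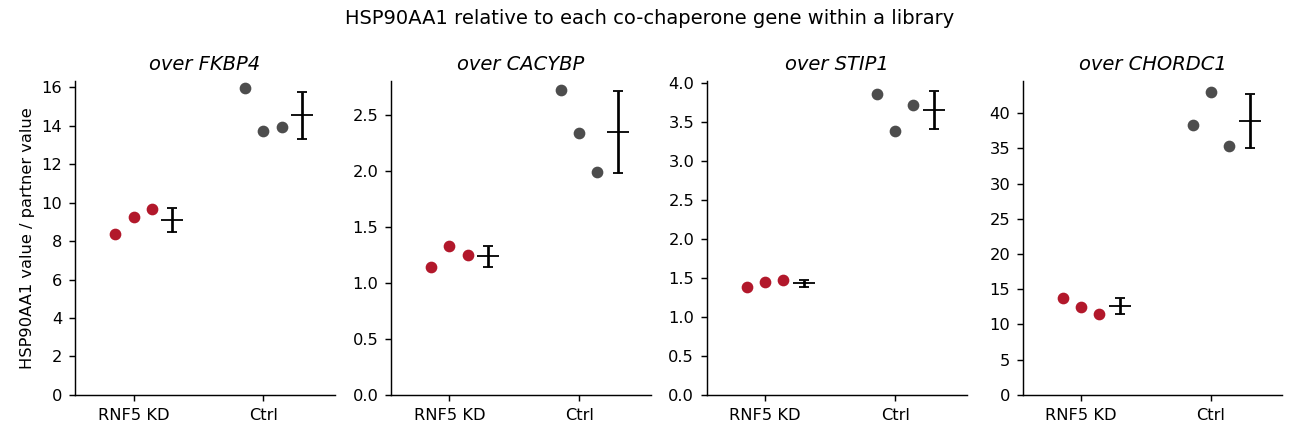
Ratio of the HSP90AA1 value to the value of each co-chaperone gene in the same library, with RNF5 KD libraries (red) left of Ctrl libraries (grey); black marks are the mean and SD of 3 libraries and each axis starts at 0. All 4 ratios are lower in the 3 knockdown libraries than in the 3 control libraries.

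The other 6 pairs among the 5 genes were compared in the same way after the values had been seen. Over all 10 pairs, the groups did not overlap in 8. They overlapped in the ratio of FKBP4 to CACYBP, which was 0.136, 0.144 and 0.129 in RNF5 KD libraries and 0.171, 0.170 and 0.143 in Ctrl libraries, and in the ratio of STIP1 to CHORDC1, which was 9.98, 8.68 and 7.84 in RNF5 KD libraries and 9.91, 12.7 and 9.51 in Ctrl libraries. The order of FKBP4 and CACYBP, and that of STIP1 and CHORDC1, was therefore not resolved beyond the spread of the libraries. The exact permutation p was 0.2 for the first of these pairs, 0.3 for the second and 0.1 for each of the others, with adjusted values of 0.125 to 0.3 over 10 pairs. How often the ratios of other gene pairs in the authors' table separate the groups was not computed. The number of separate pairs, those with HSP90AA1 included, therefore does not set these 5 genes apart.

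Among the 1290 genes fitted and on the log2(value + 1) scale, HSP90AA1 had the 13th lowest log2 fold change, FKBP4 the 49th, CACYBP the 78th, STIP1 the 254th and CHORDC1 the 485th. On that scale 1.01% of genes were at or below the log2 fold change of HSP90AA1, and a log2 fold change of -1 or lower was reached by 16.7% of genes and by 3 of these 5. The pseudocount shrinks the fold changes of low genes most. By the ratio of group means, with no pseudocount, HSP90AA1 stood at place 65 (5.04% of genes), FKBP4 at 130, CACYBP at 185, STIP1 at 389 and CHORDC1 at 546, in the same order among themselves. The knockdown coefficient of variation was smaller than that of the controls in all 5 genes and in 64.8% of the 542 genes called lower. By the root mean square difference of log2(value + 1) profiles over the 6 libraries, each centred on its own mean, the genes most like HSP90AA1 among 534 other named genes that averaged 5 or more were DNAJB1 (0.0870), IFIT3 (0.117), SRXN1 (0.132) and OSGIN1 (0.214). DNAJB1 encodes a co-chaperone that activates HSP70, IFIT3 an interferon-induced protein, SRXN1 an enzyme that repairs oxidized peroxiredoxins and OSGIN1 a protein induced by oxidative stress. IFIT3 averaged only 1.15 in RNF5 KD cells and 9.92 in Ctrl cells, so its likeness depends on the pseudocount. Those most like FKBP4 were PIR (0.0798), LRP12 (0.0875), CDC20 (0.0885) and FAM72C (0.110), the last of which has near-identical copies that can share its reads. Such profiles keep the difference between the groups, so genes with a near-equal fold change come out as alike. DNAJB1, IFIT3, SRXN1 and OSGIN1 had log2 fold changes of -2.38, -2.34, -2.49 and -2.31, against -2.30 for HSP90AA1. Shared regulation was not tested. Among the 5 genes themselves, FKBP4 and CACYBP were the closest pair (0.141) and HSP90AA1 and CHORDC1 the most distant (0.829).

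**Figure D4:**
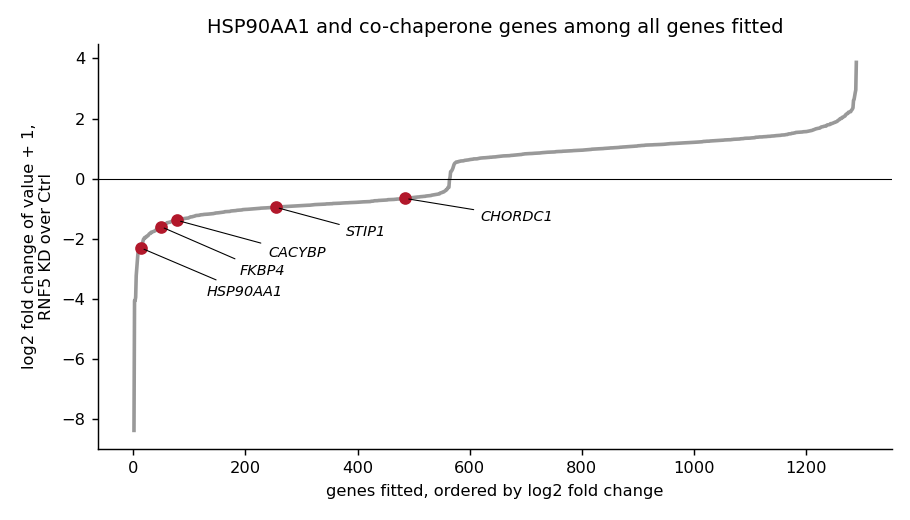
Log2 fold change of value + 1, RNF5 KD over Ctrl, of the 1290 genes fitted in rising order, with the 5 genes marked. On this scale HSP90AA1 lies at place 13 and CHORDC1 at place 485, and few genes of this selected table lie near 0.

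Few other parts of the HSP90 machinery had values. Of 36 further HSP90 co-chaperone genes, among them PTGES3, CDC37, FKBP5, PPP5C and STUB1, only FNIP1 was in the table. FNIP1 (ENSG00000217128) encodes a folliculin partner that slows the ATPase of HSP90. It had 6.21, 8.16 and 7.45 in RNF5 KD libraries, against 21.6, 14.5 and 13.9 in Ctrl libraries, and fell by a log2 fold change of -1.07 (SE 0.21, limma adjusted p = 0.00056). Neither HSP90B1 nor TRAP1, the HSP90 forms of the endoplasmic reticulum and of mitochondria, was in the table. Genes without a row have no values here, and nothing can be said of whether they changed.

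Of 36 genes of HSP90 clients, 3 were in the table and 1 could be fitted. PLK1, a mitotic kinase, had 97.6, 99.5 and 100.4 in RNF5 KD libraries, against 239, 240 and 146 in Ctrl libraries, and fell by a log2 fold change of -1.03 (SE 0.20, limma adjusted p = 0.00047). The kinases SRC and KIT were under the filter on low values. SRC averaged 0.130 ± 0.0624 in RNF5 KD cells and 0.820 ± 0.448 in Ctrl cells, and KIT averaged 0.747 ± 0.283 in RNF5 KD cells and 0.163 ± 0.0814 in Ctrl cells (SD, n = 3 each).

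Of 26 heat shock factors and classical targets of heat shock factor 1, 14 were in the table and 12 have no values here. All 14 were fitted and called lower, in a table selected for change in which 42% of genes fitted were called lower. Their median log2 fold change was -1.17, against -1.39 for HSP90AA1 and its 4 co-chaperone genes and 0.73 over all genes fitted. The median over all genes depends on the filter and the pseudocount. It was -0.10 without a filter on low values, 0.14 with a pseudocount of 10 and 1.14 with a pseudocount of 0.1. It is therefore no measure of how a typical gene changed. The 14 fold changes ran from -4.06 to -0.70, against -2.30 to -0.66 for those 5 genes, so several fell further than HSP90AA1. The lowest was that of HSPA6, which averaged 0.713 in RNF5 KD cells and 27.7 in Ctrl cells. HSPA6 passed the filter on low values through control libraries alone, so its call as lower partly follows from the filter. Its fold change depends on the pseudocount. HSPB1, a small heat shock protein, averaged 188 ± 26.9 in RNF5 KD cells and 1494 ± 240 in Ctrl cells. HSPA8, the constitutive HSP70, averaged 483 ± 52.1 in RNF5 KD cells and 1099 ± 219 in Ctrl cells. The mitochondrial co-chaperonin HSPE1 fell by a log2 fold change of -1.27, the collagen chaperone SERPINH1 by -1.09 and DNAJB1 by -2.38. HSPA1B, an inducible HSP70 whose reads may be shared with the near-identical HSPA1A, fell by -2.72. DNAJA1 had 36.0, 41.4 and 37.8 in RNF5 KD libraries, against 93.6, 80.8 and 71.3 in Ctrl libraries. Its log2 fold change of -1.07 (SE 0.17, limma adjusted p = 0.000145) lay between those of CACYBP and STIP1. HSF1 itself was not in the table.

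**Figure D5:**
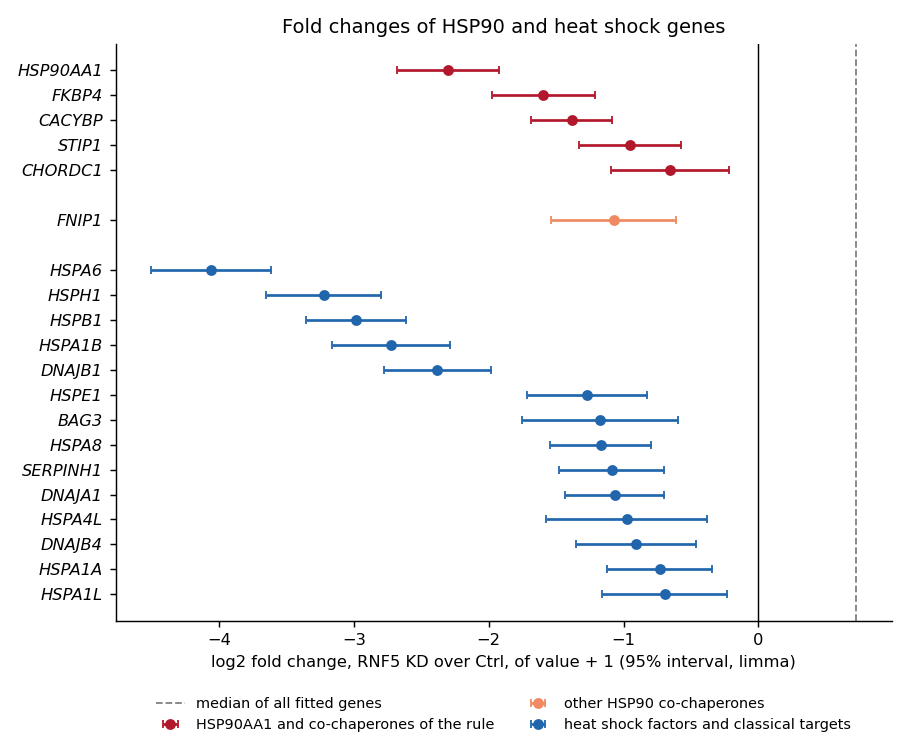
Log2 fold change of value + 1, RNF5 KD over Ctrl, with 95% limma intervals, of the 5 genes, of FNIP1 and of 14 heat shock factor targets; the dashed line is the median of all 1290 genes fitted, at 0.73. The place of the dashed line depends on the filter and the pseudocount. All intervals shown lie below 0, and those of HSP90AA1 and CHORDC1 do not meet.

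A run of 3 alternating heat shock units stood in a promoter window of 8 of 358 genes called lower that have a window in RefSeq (2.23%), of 0 of 384 genes called higher, and of 0.608% of all 27305 genes. The 8 genes were HSP90AA1 and CHORDC1, then DNAJA1, HSPA6, HSPA8 and SERPINH1 from the list of heat shock targets, and HLA-G and CCDC154. Most of the 8 were thus genes already chosen by name, and the share among genes called lower rests largely on them. HSPA6 and HLA-G averaged 0.713 and 0.587 in RNF5 KD cells and passed the filter on low values through control libraries alone. Their calls as lower therefore partly follow from the filter. At least 1 pair of units, runs of 3 units included, stood in windows of 16.8% of genes called lower, 14.3% of genes called higher and 16.2% of all genes. Among the 4 genes with windows, HSP90AA1 had 1 match to 3 alternating units and CHORDC1 had 3 such matches, which overlapped. STIP1 had a single pair and CACYBP had none. The part of these letters in the falls was not tested.

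As a check of the samples, RNF5 had 95.4, 81.3 and 88.4 in RNF5 KD libraries, against 1595, 1649 and 1248 in Ctrl libraries, and 5.90% of the control level was left. Values summed over the 1877 listed genes were 116840 to 122080 in RNF5 KD libraries and 90825 to 93975 in Ctrl libraries. These sums cover selected genes only, and depth is unknown. Of 12 plasma cell markers, SDC1 alone was in the table, at 35.5 ± 1.16 in RNF5 KD cells and 12.1 ± 2.66 in Ctrl cells (SD, n = 3 each). None of 10 T and NK cell markers or 10 myeloid markers was in the table, and of 10 fibroblast and packaging cell markers COL1A1 was there, at 0.07 to 0.44 in RNF5 KD libraries and 0.47 to 0.72 in Ctrl libraries. The defining markers of LP-1 could thus not be checked beyond SDC1, and in bulk RNA fewer cells of a type and less RNA per cell cannot be told apart.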

How the data were processed

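RNA from 6 LP-1 libraries (3 RNF5 KD, 3 Ctrl) had been sequenced, and groups and replicate numbers came from the sample titles. Bowtie 0.12.2 and build hg19 are named, with no step, per the submitters' processing notes. The authors deposited 1 value per gene and library, a normalized signal with decimals and of unstated scale, for 1877 selected genes. They also deposited group means, a fold ratio of knockdown over control with its log2, and p-values, raw and adjusted, of an unstated test. Depth is unknown, so no counting interval is given and the precision is that of 3 libraries a group.

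Values were fitted with limma 3.58.1 (R 4.3.3) on log2(value + 1) with a mean-variance trend and the group alone, for 1290 genes that reached 1 in no fewer than 3 libraries. This scale understates changes of low genes. A gene was called at a Benjamini-Hochberg adjusted p under 0.05 over all genes fitted. Exact permutation tests used SciPy 1.17.1. Exon lengths for the length alternative came from GENCODE release 29 and matched 1721 genes (91.7%). Promoter windows came from RefSeq.

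Named were the 5 genes, RNF5, DNAJA1, up to 6 list members with the highest mean, and the 4 genes most alike to HSP90AA1 and to FKBP4. Genes named for a promoter match, HSP90AA2P and the other pairs were chosen after their values were seen. The members and lists were chosen with earlier results of these data known. Alternatives were other pseudocounts, filters and scalings, no trend, a replicate block, leaving out each library and removing the trend on gene length.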

Additional observations from a re-analysis of the deposited data

How the results depend on the processing

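In every alternative run, all 5 genes stayed lower and past the threshold in limma, with log2 fold changes from -2.92 to -2.14 for HSP90AA1, -2.20 to -1.34 for FKBP4, -2.01 to -1.34 for CACYBP, -1.57 to -0.83 for STIP1 and -1.25 to -0.49 for CHORDC1. CHORDC1 came nearest to losing its call, with limma adjusted p from 7.01e-05 to 0.0459 over 15 alternatives, the highest without knockdown library 1. Leaving out 1 library gave -2.46 to -2.14 for HSP90AA1 and -0.75 to -0.49 for CHORDC1. Without a filter on low values 880 genes were called lower in place of 542, and the listed clients numbered 2 lower and 1 higher, since SRC and KIT then entered. With a mean of at least 5 required, 277 genes were lower and 314 higher, in place of 542 and 718, because 598 genes were fitted. With median-of-ratios scaling 592 genes were lower and 568 higher, so that lower genes became the larger share (51.0% of those called). This scaling, which takes most genes as unchanged, also gave the lowest log2 fold change of each of the 5 genes. Same-numbered libraries did not deviate together (correlations -0.165, -0.071 and -0.082, and no library correlated best with its own number). These values show no sign of pairing. Whether same-numbered libraries were handled together is not stated. With the replicate block 551 genes were lower and 721 higher, and all 5 genes kept their call. With the length trend removed HSP90AA1 was at -2.30 and CHORDC1 at -0.64. The permutation results stayed at the smallest p possible under each pseudocount. For the ratios, leaving out a library raised that smallest p to 0.2.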
